A study of Mus musculus with 4 samples.

Results

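The DNA methyltransferases Dnmt1, Dnmt3a and Dnmt3b, their cofactors Uhrf1 and Dnmt3l, the TET dioxygenase Tet2 and the thymine DNA glycosylase gene Tdg were followed in differentiating mouse embryonic stem cells after silencing of Pnpla6. The members were all non-control array probes whose RefSeq accession belongs to 1 of 9 listed genes of DNA methylation and demethylation. The rule found 12 of 41174 probes, for 7 of the 9 genes and of 17016 genes named on the array: 3 for Dnmt3a, 2 each for Uhrf1, Tet2 and Tdg, and 1 each for Dnmt1, Dnmt3b and Dnmt3l. Tet1 and Tet3 had no such probe and were not analysed here. All 12 probes passed the filter on low signals, were well above background in all 8 channels, and were not saturated.

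The cells were of the D3 mouse embryonic stem cell line. One RNA of each array came from siNTE cells, transfected by lipofection with siRNA against Pnpla6, the gene of neuropathy target esterase, and the other from Control cells, whose own treatment is not given in the sources used here. Both were cultured as embryoid bodies with LIF withheld, a cytokine that holds mouse stem cells undifferentiated, and sampled at 96 h and at 24 h as siNTE 96 h, Control 96 h, siNTE 24 h and Control 24 h. Each time had 2 whole-genome 2-colour arrays with exchanged dyes, each pairing an siNTE RNA with a Control RNA. Whether same-time arrays used separate cultures is not stated. The p-values rest on the spread left after a fitted dye effect, in large part shared over probes. They do not measure the spread between the 2 arrays of a time alone, and that spread may be technical.

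In mammals, DNA methylation is copied to the new strand at replication by DNMT1, which UHRF1 brings to half-methylated sites, and is set at new sites by DNMT3A and DNMT3B, helped by DNMT3L, which has no catalytic activity of its own. TET enzymes oxidize 5-methylcytosine, and thymine DNA glycosylase excises the further oxidized bases so that base excision repair can restore cytosine. Naive mouse embryonic stem cells are known for low methylation, which increases with the exit towards the epiblast state, when Dnmt3a and Dnmt3b are usually raised.

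Promoter letters are shown for 4 members: Dnmt3b and Dnmt3l, which moved in opposite directions with time in Control cells, and Dnmt1 and Uhrf1, the maintenance pair. RefSeq promoter windows of GRCm38.p6, 300 bases with 250 before a transcript start, were held for all 9 listed genes in 16 windows. The Dnmt3b window had 30 CpG dinucleotides, more than 88.3% of 32851 windows of that length, which had a median of 7. The 3 Dnmt3l windows had 6, 4 and 3, none above that median. Among the other genes lower at 96 h in Control cells, Tet2 had 57, Dnmt3a 46, 47 and 18, Uhrf1 33 and 12, and Tdg 26. A link between CpG content and change with time was not tested. Below, the part before the gene's first annotated base is given with CpG in capitals, for Dnmt3b at chr2:153649199-153649410 and for Dnmt3l at chr10:78042037-78042286, both on the plus strand.
Dnmt3b: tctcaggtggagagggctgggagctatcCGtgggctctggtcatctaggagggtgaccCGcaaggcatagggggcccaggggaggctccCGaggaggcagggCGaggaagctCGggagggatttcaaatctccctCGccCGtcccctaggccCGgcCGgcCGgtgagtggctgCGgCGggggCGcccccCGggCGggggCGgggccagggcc
Dnmt3l: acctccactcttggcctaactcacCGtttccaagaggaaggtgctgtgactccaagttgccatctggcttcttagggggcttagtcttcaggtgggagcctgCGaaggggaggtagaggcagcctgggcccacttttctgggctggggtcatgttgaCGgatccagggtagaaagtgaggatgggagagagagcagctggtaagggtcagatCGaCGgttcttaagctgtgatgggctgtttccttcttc
The printed Dnmt3b stretch of 212 bases holds 16 CpG dinucleotides and the Dnmt3l stretch of 250 bases holds 5.

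Letters of E2F sites, which many genes of DNA replication carry, were searched as TTTCGCGC and TTTGGCGC on both strands. They occurred in 0.81% of all windows and in 2 of the 16 member windows, 1 of Dnmt1 and 1 of Uhrf1. The matches are in capitals in 30-base stretches, at chr17:56304117-56304146 on the plus strand for Uhrf1 and at chr9:20952574-20952603 and chr9:20952824-20952853 on the minus strand for Dnmt1.
Uhrf1: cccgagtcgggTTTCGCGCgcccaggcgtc
Dnmt1 downstream: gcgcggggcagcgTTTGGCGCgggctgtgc
Dnmt1 upstream: ggtttccgcgcGCGCGAAAaagccggggtc
The GC box GGGCGG was in 12 of the 16 member windows and in 35.66% of all windows, and the octamer ATGCAAAT in 0 of 16 and in 1.74%. These motifs were chosen with the windows in view, and a match describes letters only.

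The targeted gene was checked first. Pnpla6 (probe A_51_P301891) had log2 ratios of siNTE to Control of 0.12 and −0.11 on the 96 h arrays, against −0.73 and −1.002 on the 24 h arrays. The limma fit gave 0.01 at 96 h and −0.87 at 24 h (SE 0.06 each, n = 2 arrays, adjusted p = 0.962 and 1.3e-14), which left 54.9% of the Control level at 24 h. Its other probe gave 67.5% there and the same 0.01 at 96 h. Without the dye term the limma adjusted p at 24 h was 1 for both probes. Of 43379 non-control spots per array, 62.5% to 68.7% per channel were well above background, and the number of arrays limits the precision. All 13 measured genes of a naive pluripotency list were well above background in every RNA group.

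The question at 96 h was which of these enzymes differed between siNTE and Control cells when the Pnpla6 ratio itself was near 0. Dnmt3b was lower in siNTE cells, 1 of 3 Dnmt3a probes was slightly higher, and the other 10 probes did not pass the test. Dnmt3b had normalized intensities of 3724.2 and 3753.5 in siNTE cells at 96 h, against 5383.2 and 6332.3 in Control cells. Both siNTE channels lay below both Control channels. The share of all probes with groups separated like this was not computed, here or for the members below. The log2 ratio of Dnmt3b was −0.53 on replicate 1 and −0.75 on replicate 2. The limma fit gave −0.64 (SE 0.06, n = 2 arrays, adjusted p = 1.2e-11), or 1.56-fold lower in siNTE cells.

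Of the 12 member probes 2 were called at 96 h, 1 higher and 1 lower, where 13.1% of all 28082 probes were called, 6.31% higher and 6.76% lower. With arrays centred on their median in place of loess, 61.8% of all calls at 96 h were higher, against 48.3% with loess, and the member calls were still 1 higher and 1 lower. The share of members called was near this background. The median log2 ratio of the 12 probes was 0.06, against 0.0015 over all probes. The Dnmt3b call rests on the dye term, which is also the block on the replicate number: without it the ratio was the same, with a limma adjusted p of 0.069. Fits that leave out an array also have no dye term, so a call lost there is no separate check. The Dnmt3b ratio was −0.75 without 96 h replicate 1 and −0.53 without 96 h replicate 2, and it was not called. There 1 array stands for the time and is assumed to vary like the others. With either 24 h array left out, the Dnmt3b ratio at 96 h was −0.64, and it stayed called though no dye term was fitted. Replicate 2 was alone on its slide. In bulk RNA, fewer cells of a type that expresses Dnmt3b and less RNA per cell cannot be told apart.

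**Figure D1:**
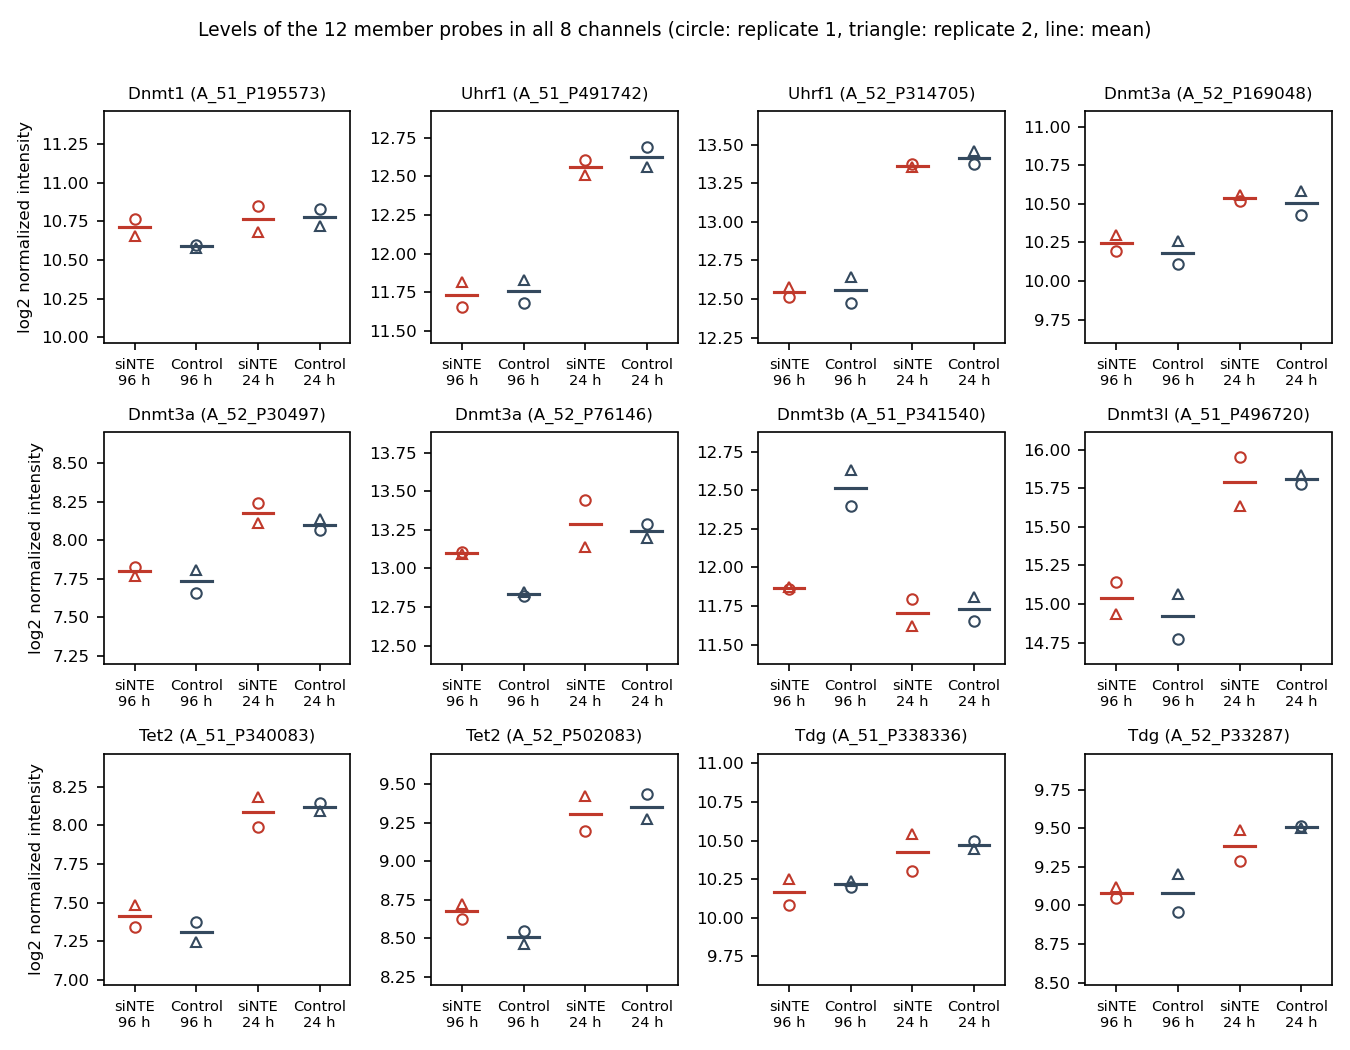
Log2 normalized intensity (y axis, arbitrary units, each panel spanning 1.5 log2 units) of each member probe in siNTE (red) and Control (dark) channels at 96 h and 24 h, with replicate 1 as circles, replicate 2 as triangles and the mean as a line. In the Dnmt3b panel the Control 96 h channels stand above the other 6, while the Uhrf1, Dnmt3l and Tet2 panels step down between 24 h and 96 h in both RNAs.

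Among the maintenance genes, Dnmt1 had intensities of 1739.8 and 1614.4 in siNTE cells at 96 h, against 1551.7 and 1526.7 in Control cells. The siNTE channels lay above the Control channels without overlap, by little. The fitted log2 ratio of 0.12 (SE 0.06, n = 2 arrays) did not pass (limma adjusted p = 0.227). Uhrf1, whose protein reads half-methylated DNA, had intensities of 5832.6 and 6107.0 in siNTE cells and 5684.1 and 6404.1 in Control cells with its brighter probe A_52_P314705, so the groups overlapped. Both Uhrf1 probes had a log2 ratio of −0.02 (limma adjusted p = 0.923 and 0.887), with 95% intervals from −0.15 to 0.11.

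The other de novo enzyme, Dnmt3a, gave different results with its 3 probes. The brightest, A_52_P76146, had intensities of 8801.6 and 8731.3 in siNTE cells at 96 h, against 7219.9 and 7372.7 in Control cells. Its groups did not overlap, and the log2 ratio of 0.26 (SE 0.06, n = 2 arrays, limma adjusted p = 0.0023), or 1.20-fold, passed the test. Probes A_52_P169048 and A_52_P30497 gave 0.06 and 0.07 and did not pass (limma adjusted p = 0.602 and 0.583). All 3 match the same RefSeq transcript, and where on it each probe lies was not analysed here. The call of A_52_P76146 was lost without the dye term (limma adjusted p = 0.342). It was also lost without any of the 4 arrays, in fits that have no dye term either. With the dye term kept, the call was lost with an offset of 16 and with the authors' log ratios (limma adjusted p = 0.086 and 0.26). It stayed with no background correction and with median centring in place of loess. Dnmt3a therefore rests on 1 probe, 1 form of the fit and the choice of processing.

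Dnmt3l, the cofactor of the de novo enzymes, was split by replicate at 96 h. Its intensities were 36139.5 and 31257.0 in siNTE cells, against 27994.2 and 34289.9 in Control cells, and its log2 ratios were 0.37 on replicate 1 and −0.13 on replicate 2. The fitted ratio was 0.12 (limma adjusted p = 0.257). The fitted dye term of Dnmt3l, −0.22, was the furthest from 0 of the 12 probes.

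On the removal side, the brighter Tet2 probe A_52_P502083 had intensities of 395.6 and 422.5 in siNTE cells at 96 h, against 374.5 and 353.0 in Control cells. The groups did not overlap, and the log2 ratio of 0.17 (SE 0.06, n = 2 arrays) missed the threshold (limma adjusted p = 0.073). Its other probe gave 0.10 (limma adjusted p = 0.357), with overlapping groups. The Tdg probes gave −0.05 and 0.00 (limma adjusted p = 0.703 and 0.980). Of the 12 probes, 3 had an unadjusted p under 0.05 at 96 h, those of Dnmt3b, Dnmt3a (A_52_P76146) and Tet2 (A_52_P502083), where 24.3% of all probes had one.

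At 24 h Pnpla6 RNA was partly reduced in siNTE cells, to 54.9% or 67.5% of the Control level depending on the probe. At that time 0 of the 12 member probes were called in limma, where 0.427% of all probes were. An unadjusted p under 0.05 was held by 0 of the 12, and by 2151 of all 28082 probes. Fitted log2 ratios ran from −0.12 (Tdg, A_52_P33287) to 0.07 (Dnmt3a, A_52_P30497), with a median of −0.03. Dnmt3b had intensities of 3549.5 and 3145.1 in siNTE cells, against 3221.7 and 3580.1 in Control cells, so that each group held 1 high and 1 low channel. In limma its log2 ratio came to −0.02 (95% interval −0.15 to 0.10, n = 2 arrays, adjusted p = 0.995). The Tdg probe A_52_P33287 had 623.6 and 718.5 in siNTE cells, against 730.2 and 724.6 in Control cells. Its groups did not overlap, and it did not pass (limma adjusted p = 0.737). How often groups of all probes were apart at this time was not computed.

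The silencing effect on Dnmt3b differed between the times. The effect at 96 h minus that at 24 h was −0.62 (SE 0.09, limma adjusted p = 9.8e-07), and Dnmt3b was the only 1 of 12 probes called in that contrast, where 7.05% of all probes were, 2.86% higher and 4.19% lower. Without the dye term the same difference had a limma adjusted p of 0.404. Without any of the 4 arrays it was not called either, at −0.78 to −0.46, in fits that also have no dye term. The Dnmt3a probe A_52_P76146 and the Tet2 probe A_52_P502083 had differences of 0.22 and 0.21 that did not pass (limma adjusted p = 0.158 and 0.165).

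**Figure D2:**
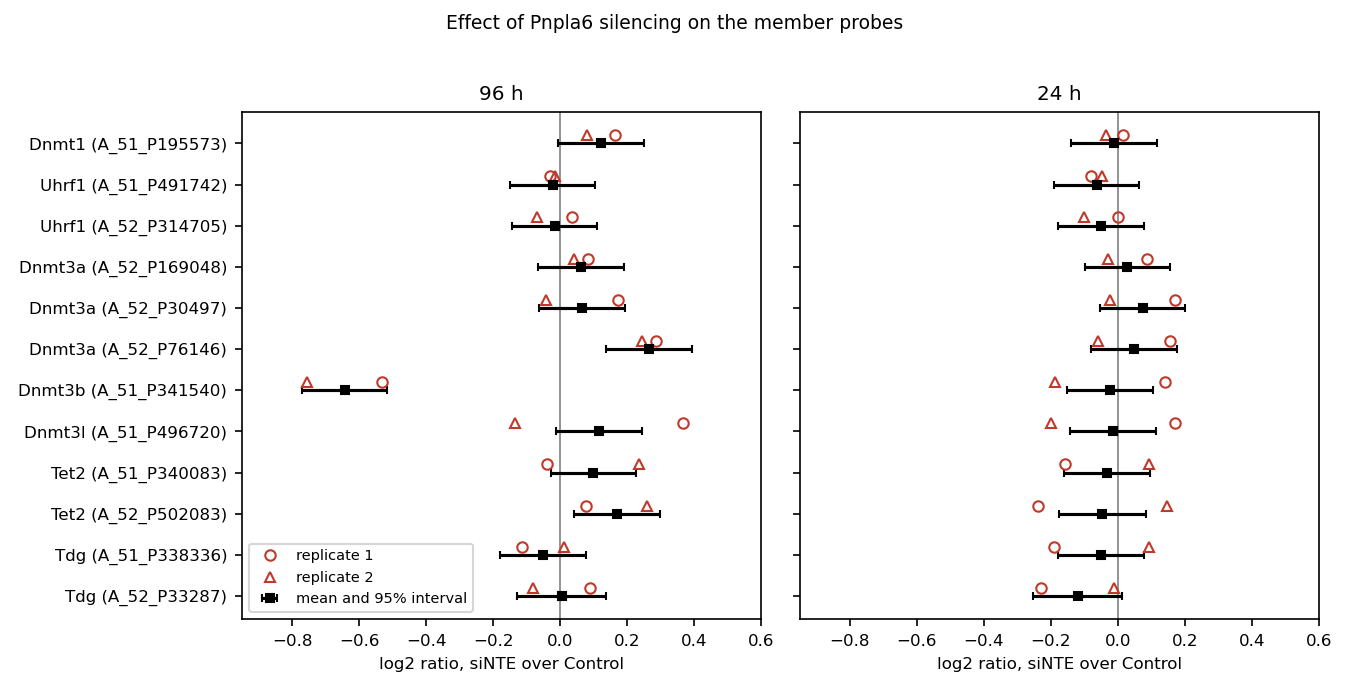
Log2 ratio of siNTE to Control (x axis) of each member probe (y axis) at 96 h (left panel) and 24 h (right panel), with each array as an open symbol and the limma mean with its 95% interval as a black square and bar. At 96 h the Dnmt3b interval, −0.77 to −0.52, lies apart from the other 11 probes, and at 24 h all 12 intervals include 0.

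The passage of differentiation was compared within each RNA, through single channels. Uhrf1, Dnmt3l and Tet2 fell by 96 h in both RNAs, Tdg and the 2 dimmer Dnmt3a probes fell less, and Dnmt3b rose in Control cells but did not pass the test in siNTE cells. In siNTE cells 9 of 12 probes were called at 96 h against 24 h, 0 higher and 9 lower, where 54.4% of all probes were called, 25.5% higher and 28.9% lower. In Control cells 11 were called, 1 higher and 10 lower, where 53.6% were, 25.4% higher and 28.2% lower. The median log2 change of the 12 probes was −0.34 in siNTE cells and −0.42 in Control cells, against −0.03 and −0.02 over all probes. Times lay on different arrays, so array and time are compared only after normalization between arrays.

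Dnmt3b in siNTE cells had 3724.2 and 3753.5 at 96 h, against 3549.5 and 3145.1 at 24 h, a log2 change of 0.16 (SE 0.08, n = 2 channels a time, limma adjusted p = 0.105). In Control cells it had 5383.2 and 6332.3 at 96 h, against 3221.7 and 3580.1 at 24 h, a log2 change of 0.78 (SE 0.08, limma adjusted p = 2.4e-06), or 1.72-fold. Both channels at 96 h were above both at 24 h in each RNA, by a wide margin in Control cells. With Agilent's processed signals centred on each channel's median, which shifted the median of all probes to −0.20 in each RNA, the Dnmt3b change was −0.19 in siNTE cells (limma adjusted p = 0.122) and 0.44 in Control cells (limma adjusted p = 0.0077). The sign of the siNTE change thus depends on the scaling, and relative to all probes it was near 0 there. The difference between the RNAs is that of the ratios above.

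Dnmt3l, very bright in both RNAs, had 36139.5 and 31257.0 at 96 h in siNTE cells, against 63267.9 and 50958.9 at 24 h, and 27994.2 and 34289.9 at 96 h in Control cells, against 56223.9 and 58480.8 at 24 h. The channels of the 2 times did not overlap in either RNA. The log2 change was −0.76 in siNTE cells and −0.89 in Control cells (SE 0.08 each, limma adjusted p = 3.9e-06 and 8.8e-07). Dnmt3a was lower at 96 h in Control cells with all 3 probes, at −0.41, −0.37 and −0.32 (A_52_P76146, A_52_P30497 and A_52_P169048). In siNTE cells A_52_P30497 and A_52_P169048 fell by 0.38 and 0.29, and A_52_P76146 had a change of −0.19 that did not pass (limma adjusted p = 0.086). The Control call of A_52_P76146 was lost without 96 h replicate 2 (−0.37, limma adjusted p = 0.051), and its siNTE change was called without 24 h replicate 2 (−0.33, limma adjusted p = 0.017). Both calls of A_52_P169048 were lost without 24 h replicate 2 and without 96 h replicate 1, at −0.28 to −0.21, and its siNTE call with limma's own intraspot correlation (limma adjusted p = 0.052).

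The 2 maintenance genes parted with time. Uhrf1 (A_52_P314705) had 5832.6 and 6107.0 at 96 h in siNTE cells, against 10607.6 and 10477.2 at 24 h, and 5684.1 and 6404.1 at 96 h in Control cells, against 10595.8 and 11240.3 at 24 h. It fell by 0.82 in siNTE cells and by 0.86 in Control cells on the log2 scale (SE 0.08 each, limma adjusted p = 1.3e-06 and 9.1e-07), to 56.6% and 55.3% of the 24 h level. The other Uhrf1 probe fell by 0.83 and 0.87. Dnmt1 had 1739.8 and 1614.4 at 96 h in siNTE cells, against 1842.2 and 1641.6 at 24 h, which overlap, and 1551.7 and 1526.7 at 96 h in Control cells, against 1823.8 and 1683.7 at 24 h. Its changes of −0.05 and −0.19 did not pass (limma adjusted p = 0.612 and 0.071), though the Control change did with the replicate number as a block (limma adjusted p = 0.039) and without 24 h replicate 2 (limma adjusted p = 0.047).

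Tet2 (A_52_P502083) had 395.6 and 422.5 at 96 h in siNTE cells, against 586.1 and 686.0 at 24 h, and 374.5 and 353.0 at 96 h in Control cells, against 691.0 and 620.0 at 24 h. It fell by 0.63 in siNTE cells and by 0.85 in Control cells (SE 0.08 each, limma adjusted p = 1.5e-05 and 9.7e-07), and its other probe fell by 0.68 and 0.81. Tdg fell by 0.30 in siNTE cells and 0.43 in Control cells with probe A_52_P33287, and by 0.25 in each with A_51_P338336 (limma adjusted p = 0.0024 to 0.020 over the 4 values). Of these 4 calls 1 was lost without 24 h replicate 1, 3 without 24 h replicate 2, all 4 without 96 h replicate 1 and 2 without 96 h replicate 2, at log2 changes of −0.32 to −0.16. All 4 were also lost with limma's own estimate of the intraspot correlation (limma adjusted p = 0.099 to 0.224).

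**Figure D3:**
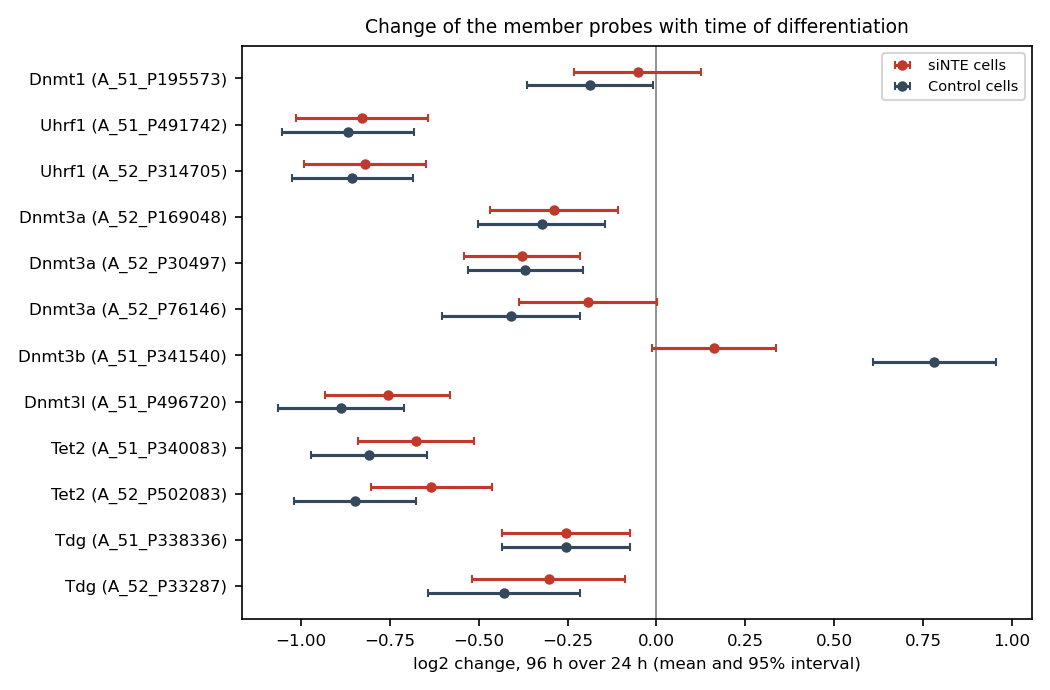
Log2 change between 24 h and 96 h (x axis, positive where 96 h is higher) of each member probe (y axis) in siNTE (red) and Control (dark) cells, as the limma mean with its 95% interval. The Control interval of Dnmt3b, 0.61 to 0.96, lies right of its siNTE interval, −0.01 to 0.34, while the 2 intervals of the other 11 probes overlap.

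The partners of these enzymes were read from lists, with the brightest probe of each gene. At 96 h 15.7% of 13135 named genes were called between siNTE and Control cells, 7.96% higher and 7.70% lower, with a median log2 ratio of 0.002. Of 10 readers of DNA methylation 0 were called, with a median of 0.04; the smallest p-values were those of Mbd6, of the methyl-CpG binding domain family, at 0.14 (limma adjusted p = 0.148), and of Rbpj, known mainly as the DNA-binding factor of Notch signalling, at 0.13 (limma adjusted p = 0.205). Of 21 partners that help place the methyltransferases 0 were called, with a median of −0.03, and Pcna, the replication clamp, gave −0.16 and Setdb1, a histone H3 lysine 9 methyltransferase, gave 0.17 (limma adjusted p = 0.080 and 0.086). At an unadjusted p under 0.05, 2 of the 10 readers and 3 of the 21 partners passed, where 27.3% of named genes did.

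Of 17 genes of base excision repair, which completes the pathway of Tdg, 2 were higher and 1 was lower in siNTE cells at 96 h, with a median of 0.03. Ung, a uracil glycosylase, and Neil2, a glycosylase of oxidized bases, were each higher by 0.19, and the ligase Lig3 was lower by 0.22. The higher ratio of Neil2 rests on replicate 1, at 0.37, with −0.0005 on replicate 2. Of 18 TET cofactors, partners and deaminases 2 were higher and 2 lower, with a median of 0.03. Gadd45b, a stress-induced gene linked to demethylation, was higher by 0.41 (limma adjusted p = 2.6e-06); replicate 1 gave 0.45, replicate 2 gave 0.36, and its other probe gave 0.43. Idh2, which makes the TET cosubstrate 2-oxoglutarate, was higher by 0.32. The RNA-binding protein gene Lin28a was lower by 0.35 and Wt1, whose protein can recruit TET2, was lower by 0.26. Of 24 genes that make or use S-adenosylmethionine, the methyl donor, 3 were higher and 2 lower, with a median of −0.01. Bhmt and Bhmt2, which remethylate homocysteine, were higher by 0.28 and 0.21. Mtrr, which keeps methionine synthase active, was higher by 0.19, with other probes at 0.04 and −0.12. Ahcy, which removes the product inhibitor S-adenosylhomocysteine, was lower by 0.22. Without the dye term 0 genes of these 3 lists were called in limma, with an unadjusted p under 0.05 for 1, 4 and 3 of them, where 11.6% of named genes had one.

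A list held germline genes that promoter methylation is known to keep silent outside the germline. Of 15 tested at 96 h, 6 were higher in siNTE cells and 0 lower, with a median of 0.11, and 9 were not called, among them Tex15, the 1 gene with a ratio below 0, at −0.11 (limma adjusted p = 0.277). Stra8, which starts meiosis, had log2 ratios of 0.37 and 0.57 on the 2 arrays, a fitted 0.47 (SE 0.06, limma adjusted p = 1.0e-07). Mael, of the piRNA pathway, had 0.38 on each array, the PIWI gene Piwil2 had 0.35 and 0.24, and the meiotic axis gene Hormad1 had 0.27 and 0.23. Their fitted ratios were 0.38, 0.29 and 0.25 (SE 0.06 each, limma adjusted p = 1.0e-05, 0.00059 and 0.0037). All 4 had the same sign on both arrays. Without the dye term 0 of the 15 were called in limma, and 6 had an unadjusted p under 0.05, which 11.6% of named genes had in that fit. In the contrast of the 2 times 8.15% of named genes were called, 3.68% higher and 4.47% lower, and of the 15 germline genes 3 were higher and 0 lower. With time, 11 of the 15 rose and 0 fell in siNTE cells, where 59.1% of named genes were called, 29.8% higher and 29.3% lower. In Control cells 8 rose and 2 fell, where 58.3% were called, 29.0% higher and 29.3% lower. Stra8 and Mael rose by 3.04 and 1.70 in siNTE cells and by 2.63 and 1.24 in Control cells. Piwil2 and Hormad1 had changes of 0.10 and 0.08 in siNTE cells that did not pass, and fell by 0.24 and 0.19 in Control cells (limma adjusted p = 0.030 and 0.049).

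Cell state genes moved beside Dnmt3b at 96 h. Of 11 genes of the formative epiblast and primitive streak, the states in which Dnmt3b is high in the mouse embryo, 0 were higher and 5 lower in siNTE cells, with a median of −0.14. Relative to Control cells Fgf5 was lower by 0.69, Sall2 by 0.65, Wnt3 by 0.64 and Pou3f1 by 0.63, each on both arrays. Without the dye term 3 of the 11 were still called lower in limma, where 125 of 28082 probes were called lower. With time Fgf5, Sall2 and Wnt3 rose in siNTE cells, by 2.05, 1.57 and 0.66, and Pou3f1 had a change of 0.16 that did not pass. In Control cells these genes rose by 2.79, 2.35, 1.21 and 0.71, in the same order. Of 13 genes of the naive pluripotency list 8 were higher and 1 lower in siNTE cells at 96 h, with a median of 0.28. Without the dye term 0 were called in limma and 7 had an unadjusted p under 0.05 (11.6% of named genes). The list also holds Nanog, Sox2 and Pou5f1, core pluripotency factors that are not particular to the naive state. The 8 include Tfcp2l1, named here after its values were seen, at 0.27, whose other probes gave −0.41, called lower, and 0.11. They also include Nr0b1, named likewise, at 0.30, with −0.01 on replicate 1 and 0.62 on replicate 2. Tcl1 was higher by 0.52, Esrrb by 0.37 and Sox2 by 0.37. Pou5f1 was the 1 lower gene, at −1.05, with 0.01 and −2.11 on the 2 arrays. Its low mean comes from replicate 2, which was also the lower array at 24 h. The Pou5f1 call at 96 h rests on the dye term (limma adjusted p = 0.636 without it). At 24 h Pou5f1 was the only gene of these lists that was called (0.68; replicate 1 gave 1.58 and replicate 2 gave −0.21), where 0.343% of named genes were.

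Summed intensities of the marker lists stand beside these results. The 13 measured formative and primitive streak genes summed to 8699 to 9039 in siNTE cells at 96 h, against 12559 to 12570 in Control cells, with 11 and 10 of them well above background on both arrays. The 13 genes of the naive list summed at 96 h to 120337 to 126643 in siNTE cells, against 110941 to 113291 in Control cells. Their sums were already apart in the same direction at 24 h, 136755 to 146361 in siNTE cells, against 127854 to 135894 in Control cells. Of 10 embryonic fibroblast markers 6 were above background at 96 h, and the sums were 2887 to 2936 in siNTE cells, against 3115 to 3405 in Control cells. Of the 6 tested fibroblast markers 1 was higher and 4 were lower, among them Cxcl12 at −0.71, Dcn at −0.44 and Col1a2 at −0.35, with Fbln2 higher by 0.47. The other Cxcl12 probe gave −0.12 and was not called (limma adjusted p = 0.257). The 10 trophoblast markers, 7 above background, summed to 35789 to 37475 in siNTE cells, against 42750 to 43332 in Control cells, with Krt8 at −0.78, Peg10 at −0.64 and Krt18 at −0.22 the 3 lower of 8 tested. The 10 extraembryonic endoderm markers, 9 above background, summed to 7530 to 8489 in siNTE cells, against 7307 to 7402 in Control cells, with Cubn at 1.05 and Amn at 0.29 the 2 higher of 9 tested. Without the dye term limma called 1 fibroblast marker (Cxcl12), 0 trophoblast markers and 1 extraembryonic endoderm marker (Cubn), where it called 150 of 28082 probes. In the same order, 5, 3 and 2 markers had an unadjusted p under 0.05 in that fit, where 11.6% of named genes had one. The part of these shifts in the Dnmt3b and germline results was not tested.

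S phase genes give the frame for Uhrf1, whose RNA is known to follow the cell cycle. In both siNTE and Control cells 20 of 23 were lower at 96 h than at 24 h and 0 higher, with a median log2 change of −0.60 and −0.52, where 59.1% of named genes were called in siNTE cells, 29.8% higher and 29.3% lower, and 58.3% in Control cells, 29.0% higher and 29.3% lower. At 96 h the 23 genes summed to 181552 to 189590 in siNTE cells, against 194325 to 194521 in Control cells, and at 24 h to 250677 to 262918, against 255968 to 262327. The siNTE and Control sums thus overlapped at 24 h and not at 96 h. Of the 23, 2 were lower in siNTE cells at 96 h, Ccne1 at −0.20 and Slbp at −0.19, with a list median of −0.06. Without the dye term neither was called (limma adjusted p = 0.451 and 0.657). The part of cell cycling in the change of Uhrf1 was not tested.

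**Figure D4:**
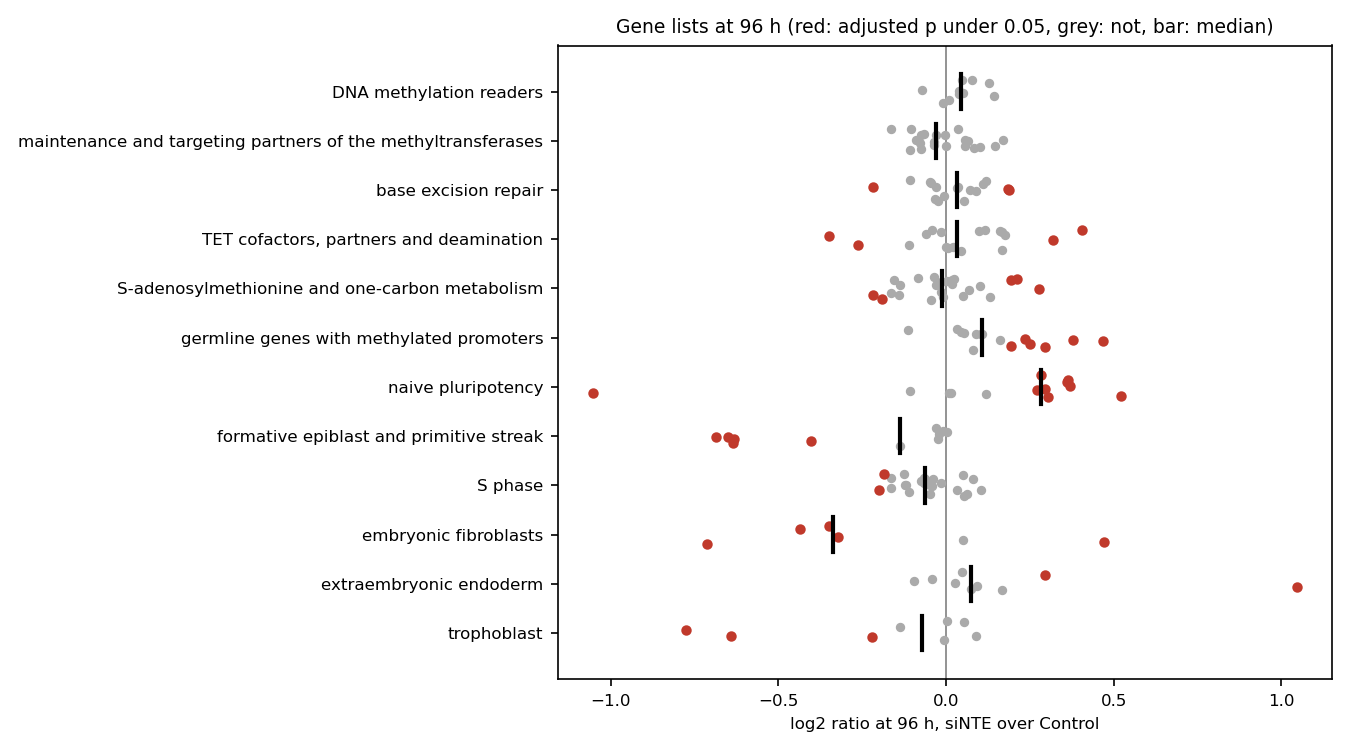
Log2 ratio of siNTE to Control at 96 h (x axis) of each tested gene of 12 lists (y axis), in red where the limma adjusted p was under 0.05 and grey where not, with the list median as a bar. The naive median of 0.28 and the germline median of 0.11 lie right of 0, the formative and primitive streak median of −0.14 lies left of it, and the readers and partners hold no red point.

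The genes with the pattern most like that of Dnmt3b over the 8 channels were sought among 11959 named genes, by the root mean square difference of centred, dye-adjusted log2 levels. These were H2-K1, a classical MHC class I gene, at a difference of 0.04, Pou3f1, a POU factor of the formative epiblast, at 0.08, and Gja1, the gap junction gene of connexin 43, at 0.08, where the Dnmt3b pattern itself had an SD of 0.35. Their log2 ratios at 96 h were −0.67, −0.63 and −0.58, and they changed with time by 0.10, 0.16 and 0.14 in siNTE cells and by 0.71, 0.71 and 0.68 in Control cells. For the Dnmt3a probe A_52_P76146, with an SD of 0.21, the nearest were Jam2, a junctional adhesion molecule, at 0.01, the growth factor gene Pdgfa at 0.04 and Mybpc2, a myosin-binding protein, at 0.05. With 8 channels on 4 arrays and this many candidates, nearness describes these libraries only.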

How the data were processed

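Cy3 and Cy5 signals of 4 Agilent arrays were analysed. Per the file headers, the authors extracted the scans with Feature Extraction 10.7.1.1, and per the submitters' processing notes they used limma, version not given. The deposited median spot and background signals are intensity in arbitrary units. The deposited processed signals are intensity after background subtraction and dye normalization. The deposited log ratios are log10 of Cy5 over Cy3, and the authors' series table repeats them within 4.967e-06 as log10 of siNTE over Control. The deposited p-value per spot covers 1 array and was not used.

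With R 4.3.3 and limma 3.58.1, signals were corrected by normexp (offset 50) and loess with control spots (1639 of 45018) at weight 0. Spots of a probe were averaged, and 28082 of 41174 probes that were well above background on both arrays of at least 1 RNA group were tested. Symbols came through RefSeq accessions, for 24375 probes. Log2 ratios were fitted with a mean per time and a dye term, which equals the replicate block because dye and replicate number coincide; deviations of same-numbered arrays correlated at 0.677 over probes. This leaves 1 residual degree of freedom, and the p-values lean on 52.8 prior degrees shared over probes. Times were compared with lmscFit on single channels after Aquantile, the dye as a term and the intraspot correlation set to 0.453, a moment estimate. That estimate was chosen after seeing the data, because limma's own returned 0.89 from data simulated at 0.453. Changed or called means a two-sided Benjamini-Hochberg adjusted p under 0.05 over all probes tested. On simulated data the 96 h test found 87% of changes of 0.3 and 100% of 0.6 on the log2 scale. It made 8 false calls among 28082 probes. The time test found 56% of 0.4 and 99% of 0.8, with 12 false calls. The simulated errors were drawn from each fit's own variance model, and those of the time test held no replicate effect. These runs therefore cannot test the lean on prior degrees or on the dye term.

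Every member probe is reported. Each list names up to 4 called genes of smallest p at 96 h, or 2 where none was called; for each called member the 3 genes nearest in pattern are given. Lists used the brightest probe per gene. The members and lists were chosen with earlier results of these data known. Alternatives varied the offset, background correction, normalization, filter, probes per gene, dye term, slide block, and the arrays left out.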

Additional observations from a re-analysis of the deposited data

Results flagged for a closer look

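The silencing effect differed between the times for Dnmt3b and for 29 genes of the lists, by the limma contrast of 96 h minus 24 h over all probes. Of 13135 named genes 8.15% were called in that contrast. Without the dye term 0 of 28082 probes were called, so every difference below depends on that term. The values of 24 of the 29 follow, those that the rule for naming genes selects; the other 5 are Klf4, Tbx3, Nr0b1, Zic2 and Thy1. For Dnmt3b the difference was −0.62 on the log2 scale. Among the TET cofactors and partners it was 0.30 for Idh2, 0.34 for Gadd45b, −0.34 for Lin28a and −0.38 for Wt1, and among the methyl donor genes 0.37 for Bhmt. Among germline genes it was 0.46 for Mael, 0.33 for Piwil2 and 0.41 for Stra8.

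In the naive pluripotency list the difference was 0.34 for Esrrb, 0.46 for Tcl1, 0.29 for Sox2 and −1.74 for Pou5f1, whose 2 arrays of a time disagreed. Among formative and primitive streak genes it was −0.73 for Fgf5, −0.55 for Pou3f1, −0.55 for Wnt3 and −0.78 for Sall2. Among markers of other cells it was −0.44 for Dcn, −0.40 for Col1a2, −0.74 for Cxcl12, 0.36 for Fbln2, 0.35 for Amn, 1.10 for Cubn, −0.72 for Krt8 and −0.67 for Peg10. Groups of 2 arrays are too small for a test of single outlying samples.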

How the results depend on the processing

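At 24 h 0 member probes were called under every alternative run. At 96 h the count of 2 became 0 without the dye term (no replicate block), 1 with an offset of 16, 0 with the authors' log ratios, 0 with the slide as a block and 0 to 1 when each array was left out. For the difference between the times the count of 1 became 0 without the dye term (no replicate block), 0 with the authors' log ratios, 0 with the slide as a block and 0 when each array was left out. With 1 probe per gene, which leaves 7 member probes, the time counts were 4 in siNTE cells and 6 in Control cells; the left-out arrays gave 6 to 9 and 8 to 10. With the replicate number as a block they were 9 and 12, and with limma's intraspot correlation of 0.894, chosen after seeing the data, 6 and 9. No called value changed sign. The ratio of Dnmt3b at 96 h was −0.75 to −0.53 in all settings. With the authors' log ratios its limma adjusted p was 0.173, and it was 0.020 without either 24 h array. Over all probes the calls at 96 h were 3670, and 1439 with an offset of 16, 150 without the dye term, 2242 with median centring, 0 with the authors' log ratios (4875 at an unadjusted p under 0.05) and 40 to 203 when each array was left out. At 24 h they were 120, and 0 without the dye term (271 unadjusted), 1 with an offset of 16, 52 with median centring, 64 with no background correction and 181 with no filter. For the difference they were 1981, and 0 without the dye term (1672 unadjusted), 983 with median centring and 475 with an offset of 16. The slide block takes the only array of the other slide out of the fit. Silencing fits with the slide block or with an array left out have no dye term, so calls lost there are no separate check. Beyond these constructions the cause was not tested.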
